A study of Mus musculus with 6 samples.

Results

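The Slc25 genes encode the mitochondrial carrier family. All protein-coding genes whose symbol begins with Slc25a and a number were taken as members, which gave 47 genes of the 54532 in the count table, 22046 of them protein-coding. Their RNA was measured by bulk RNA sequencing in MB49, a mouse bladder cancer cell line, in 3 Y-KO libraries and 3 Y-Scr libraries. Y-KO is labelled as a CRISPR genotype of MB49 cells in which Y was knocked out. Y-Scr is the CRISPR control made with a guide RNA that targets nothing. Per the labels' protocols, which all 6 libraries share, transduced cells were isolated by their tRFP fluorescence and each clone was expanded from 1 cell. The guide behind Y-KO and the number of clones in each group are not given in the sources used here. Nothing in the labels says that libraries of a group came from different cultures or clones, so p-values measure the spread between these libraries, which may be technical. The same labels also call the material a tumor under tissue, and put all libraries in 1 batch.

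Mitochondrial carriers are small proteins built from a repeated unit that spans the inner mitochondrial membrane, where most of them exchange a metabolite of the matrix for one of the cytosol. The adenine nucleotide translocases and the phosphate carrier supply ATP synthase with its substrates and export its product, and other members carry citrate, malate, aspartate, ornithine, nucleotides, vitamins, coenzyme A, iron or glutathione. Some substrates are served by closely related carriers that differ in tissue distribution or in their control by calcium, so that a cell can move the same substrate with a different protein. The members were grouped by the substrate they are known to carry, and those without a settled one were kept as a class of their own.

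The libraries held 18327877, 15698510 and 17343929 counts in Y-KO and 15907451, 17005652 and 24633158 counts in Y-Scr. A gene at 0 counts could still be present at up to 3 counts, or 0.122 to 0.191 CPM (counts scaled to the size of each library), which covers counting error only. The Y genes Ddx3y, Eif2s3y, Kdm5d and Uty summed to 0 counts in each Y-KO library, against 6747, 7119 and 8860 counts in the Y-Scr libraries. Of 14 urothelial markers, 4 reached 1 CPM in a library: Krt8, Krt18, Krt19 and Gata3. Krt8 was higher in Y-KO (log2 0.36), as was Krt19, with a mean of 7.53 CPM against 1.42 CPM in Y-Scr (log2 2.37). Gata3 was lower, with a mean of 2.81 CPM in Y-KO against 7.80 CPM in Y-Scr (log2 -1.48), and Krt18 was not called. Upk3a, Epcam and Cdh1 were at 0 counts throughout. Of 5 mesenchymal markers, 4 reached 1 CPM, and the sum of the 5 was 5286 to 5528 CPM in Y-KO and 4737 to 5312 CPM in Y-Scr, nearly all of it Vim. Snai2 of that list was lower in Y-KO, with 25.3 to 29.9 CPM against 51.7 to 60.9 CPM in Y-Scr (log2 -1.03), Vim, Fn1 and Zeb1 were not called, and Cdh2 had 0.124 to 0.215 CPM in Y-KO and 0 in Y-Scr. The list of 7 leukocyte genes summed to 95.3 to 101 CPM in Y-KO and 108 to 116 CPM in Y-Scr, nearly all of it Cd68, which was lower in Y-KO (log2 -0.17). Lyz2 stood at 0.560 to 1.19 CPM in Y-KO and 0.886 to 1.46 CPM in Y-Scr, and Ptprc, Cd3e and Itgam were at 0 counts in all 6 libraries. Of 4 fibroblast markers, 3 reached 1 CPM, and the sum of the 4 was 17.5 to 19.9 CPM in Y-KO and 11.3 to 15.3 CPM in Y-Scr. Pdgfra of that list was higher in Y-KO (log2 0.73), and Col1a1 and Dcn were not called. No marker of endothelium, erythroid, fat or germ cells reached 1 CPM in a library, and of the muscle markers only Des did. The part of these markers in the results was not tested. In bulk RNA, fewer cells that express a gene and less RNA per cell cannot be told apart.

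Differences within the family were seen for single carriers, some of them beside a close relative, and for some substrate classes. Slc25a25, an ATP-Mg carrier under calcium control, was 5.06-fold lower in Y-KO (log2 -2.34, SE 0.09, n = 3 each), and its relative Slc25a24 was 1.27-fold higher. Slc25a33, a pyrimidine nucleotide carrier, was 1.97-fold lower (log2 -0.98, SE 0.09), and its relative Slc25a36 was 1.19-fold higher, a smaller difference that several alternative fits did not call. Among the amino acid carriers 4 of 7 tested genes rose and 0 fell by edgeR's quasi-likelihood test, beside 20.7% higher and 23.0% lower among all tested genes. With the replicate number as a block, or without the first Y-KO library, 2 of the 7 were higher. Carriers of adenine nucleotides and phosphate had 3 of 6 tested genes higher and 1 lower, or 2 higher in those same fits. Slc25a53, which has no settled substrate and stands in none of the pairs compared here, was lower at log2 -0.95 (SE 0.24), from a low level. The sum over the whole family was 3970 ± 39.5 CPM in Y-KO and 3847 ± 123 CPM in Y-Scr (SD, n = 3 each), and the libraries of the groups overlapped.

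The sequences around the transcription starts of those carriers, the genes of the relative sets with the largest shift in balance, are shown here as a reference for the RNA values that follow. Each runs 5′ to 3′ on the gene's strand over 300 bases, 250 before the annotated start and 50 after it, and is taken from RefSeq on GRCm38.p6. Slc25a25 has 3 annotated starts in that table, and the gene counts do not tell them apart. Capitals mark matches to the full cAMP response element TGACGTCA, its shorter core TGACG, the E-box CACGTG, the ETS site CCGGAAG and the CCAAT box CCAAT, on either strand, so that CGTCA and ATTGG are the shorter core and the CCAAT box read on the other strand.
Slc25a24 (chr3:109122899-109123198, plus strand): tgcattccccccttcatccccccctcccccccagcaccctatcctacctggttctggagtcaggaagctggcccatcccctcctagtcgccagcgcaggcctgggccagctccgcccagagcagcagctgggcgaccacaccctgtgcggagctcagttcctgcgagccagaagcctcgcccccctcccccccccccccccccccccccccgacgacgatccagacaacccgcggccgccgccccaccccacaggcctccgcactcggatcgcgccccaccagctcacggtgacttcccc
Slc25a25 upstream start (chr2:32451421-32451720, minus strand): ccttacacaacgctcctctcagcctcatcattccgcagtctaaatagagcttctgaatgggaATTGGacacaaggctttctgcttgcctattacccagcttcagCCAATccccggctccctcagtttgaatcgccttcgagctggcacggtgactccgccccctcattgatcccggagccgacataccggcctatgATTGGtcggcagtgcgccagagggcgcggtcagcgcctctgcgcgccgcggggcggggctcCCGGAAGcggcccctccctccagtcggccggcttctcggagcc
Slc25a25 middle start (chr2:32431102-32431401, minus strand): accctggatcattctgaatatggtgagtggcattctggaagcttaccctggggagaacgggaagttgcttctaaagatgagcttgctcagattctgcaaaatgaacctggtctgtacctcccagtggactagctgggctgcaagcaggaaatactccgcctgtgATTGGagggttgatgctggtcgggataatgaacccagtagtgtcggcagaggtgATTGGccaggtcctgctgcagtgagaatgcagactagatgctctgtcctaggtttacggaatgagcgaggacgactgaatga
Slc25a25 downstream start (chr2:32424017-32424316, minus strand): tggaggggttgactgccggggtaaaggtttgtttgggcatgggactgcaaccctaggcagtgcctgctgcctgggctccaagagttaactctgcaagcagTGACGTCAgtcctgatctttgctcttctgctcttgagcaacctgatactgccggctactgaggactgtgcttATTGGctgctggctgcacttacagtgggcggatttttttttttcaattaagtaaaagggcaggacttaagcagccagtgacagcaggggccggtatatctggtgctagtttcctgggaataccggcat
Slc25a33 (chr4:149774218-149774517, minus strand): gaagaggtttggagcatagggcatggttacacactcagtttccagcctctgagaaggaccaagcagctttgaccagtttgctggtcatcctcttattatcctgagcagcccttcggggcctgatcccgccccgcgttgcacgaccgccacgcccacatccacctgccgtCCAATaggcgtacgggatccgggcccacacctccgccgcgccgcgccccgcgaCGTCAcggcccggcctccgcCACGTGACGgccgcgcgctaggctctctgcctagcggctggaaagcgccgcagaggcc
Slc25a36 (chr9:97110992-97111291, minus strand): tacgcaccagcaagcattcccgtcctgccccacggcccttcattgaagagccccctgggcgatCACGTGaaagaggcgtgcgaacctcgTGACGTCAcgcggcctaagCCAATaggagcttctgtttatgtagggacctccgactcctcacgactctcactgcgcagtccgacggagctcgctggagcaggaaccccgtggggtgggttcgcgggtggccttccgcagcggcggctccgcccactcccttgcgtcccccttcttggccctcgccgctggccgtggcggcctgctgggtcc
The full element stood in the downstream start of Slc25a25, from base 101 to base 108, and in Slc25a36, from base 90 to base 97, counted from 1 at the 5′ end. It was found in 2 of the 46 RefSeq promoters of 36 members and in 1.79% of all 32851 promoters of the table. Each full element also counts as a match to the shorter core on both strands. Slc25a33 held the shorter core at bases 223 to 227 and 247 to 251, and the E-box at 243 to 248 overlaps the second of these. The shorter core was present in 13 member promoters (28.3%) and in 20.8% of all promoters. The E-box was present in 8 member promoters (17.4%) and in 7.15% of all, the ETS site in 7 (15.2%) and in 8.86% of all, and the CCAAT box in 22 (47.8%) and in 37.4% of all. Member promoters had a median GC content of 59.3% and 15 CG pairs, against 52.7% and 7 over all promoters. The motif shares were not adjusted for this difference in base composition. Each annotated start was counted as a promoter, so a gene with several starts counts more than once. Windows of such a gene can overlap, as for Slc25a14 and Slc25a23. The TATA box TATAAA, also searched, matched in none of the 6 windows shown. It was present in 2 of the 46 member promoters (4.35%) and in 13.6% of all. A match is a run of letters in the window and says nothing of binding in these cells. Slc25a24 had no match to any of the 6 motifs.

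Of the 47 members, 45 had at least 1 count and 39 passed the filter on low counts. At an adjusted p under 0.05, 11 members were higher and 8 were lower in Y-KO, which is 48.7% of those tested. Over all 12907 tested genes 43.6% passed the same threshold, with 20.7% higher and 23.0% lower. Among the 30 members with a mean of at least 10 CPM, 9 were higher and 6 lower, or 50%, beside 51.7% of all genes at that level, where 25.5% were higher and 26.2% lower. At that level the groups did not overlap for 20 members, beside 60.0% of all genes. The CPM of the groups did not overlap for 25 of the 39 tested members, beside 52.9% of all tested genes. The share of members called in either direction therefore lay near the background. Of the tested members 28.2% were higher and 20.5% lower, so higher calls were somewhat more frequent than among all genes. Groups without overlap were also somewhat more frequent among the members. These differences from the background were not tested. The median log2 fold change, Y-KO over Y-Scr, was 0.09 over the tested members and -0.01 over all tested genes. The median absolute log2 fold change was 0.21 over the members and 0.27 over all genes. The count of members higher in Y-KO was 5 with the replicate number as a block, 5 without the first Y-KO library and 7 without the third. Other fits, named beside a gene where they end its call, removed each library's trend on gene length (the length fit), did so with the block, or removed trends on length and GC content together (the length and GC fit). Changes of at least 2-fold were found for Slc25a25 among the lower members, where 4.35% of all tested genes qualify, or 2.47% of those with at least 10 CPM, and for the barely detected Slc25a23 among the higher ones, where 1.36% qualify.

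**Figure D1:**
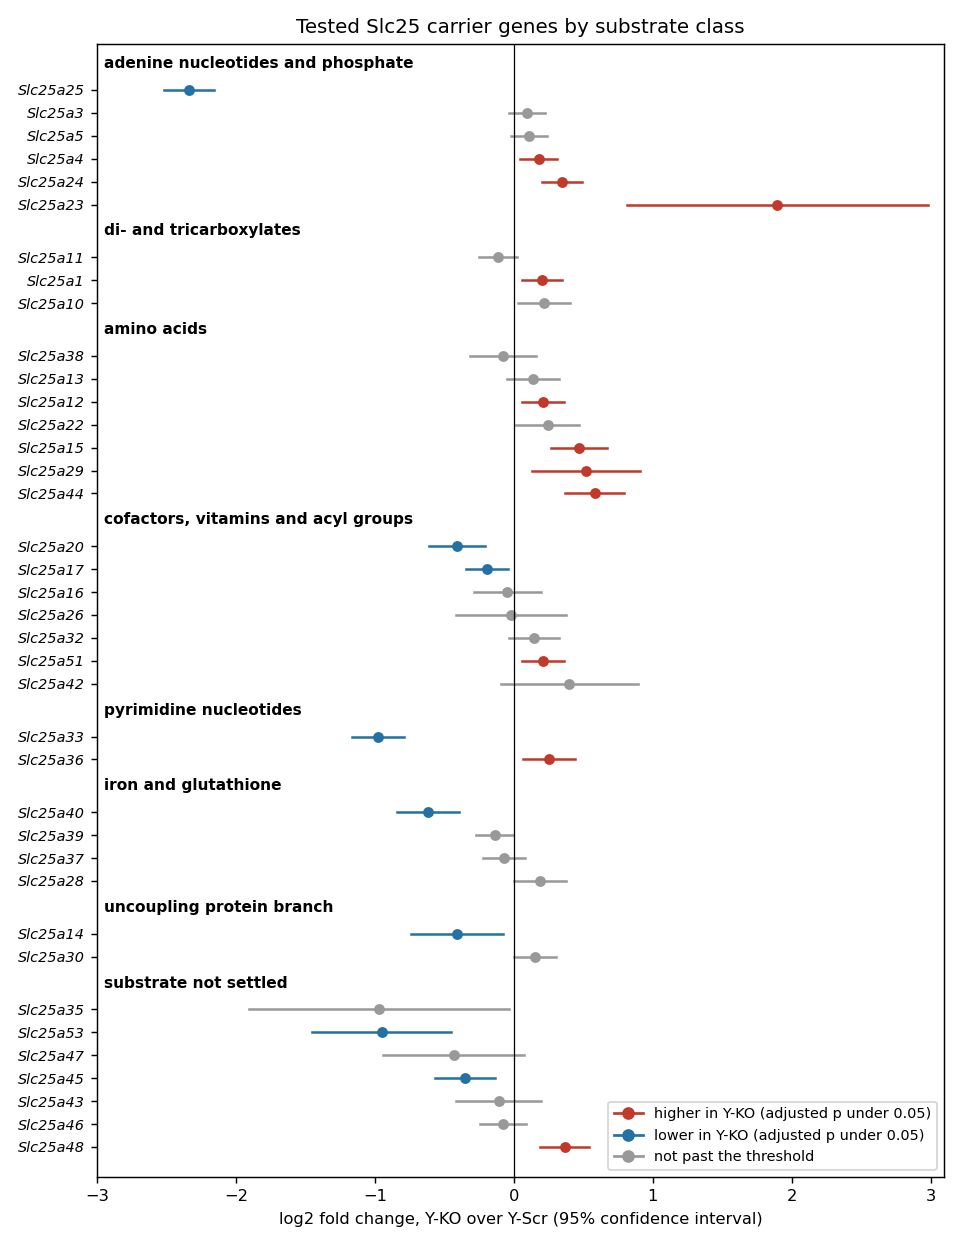
Log2 fold changes of 38 of the 39 tested carrier genes, Y-KO over Y-Scr, with 95% confidence intervals from edgeR's quasi-likelihood fit, in blocks by substrate class. Red marks the 11 genes higher and blue the 8 genes lower at an adjusted p under 0.05, and Slc25a25 at -2.34 stands farthest from 0.

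Per kb of gene length, the carriers that serve ATP synthesis had the highest levels of the family in both groups. The adenine nucleotide translocase Slc25a5 stood at 451 ± 15.5 CPM per kb in Y-KO and 418 ± 22.6 CPM per kb in Y-Scr. Its relative Slc25a4 followed at 247 ± 6.17 CPM per kb in Y-KO and 219 ± 15.6 CPM per kb in Y-Scr. The phosphate carrier Slc25a3 stood at 136 ± 2.85 CPM per kb in Y-KO and 128 ± 8.51 CPM per kb in Y-Scr, and the glutathione carrier Slc25a39 at 111 ± 1.96 CPM per kb in Y-KO and 122 ± 7.07 CPM per kb in Y-Scr. In Y-Scr the values of Slc25a3 and Slc25a39 lay within each other's spread. Together Slc25a3, Slc25a4 and Slc25a5 made up 52.4% ± 0.700 of the family's CPM in Y-KO and 49.7% ± 1.62 in Y-Scr (SD, n = 3 each). The other 44 members summed to 1891 ± 17.8 CPM in Y-KO and 1935 ± 35.5 CPM in Y-Scr.

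Of the carriers of adenine nucleotides and phosphate, 6 of 9 were tested, 3 rose and 1 fell. Among all tested genes 20.7% were higher and 23.0% lower. The gene that fell was Slc25a25. It exchanges ATP-Mg for phosphate and binds calcium through its amino-terminal domain, and it lies on chromosome 2 at 32414487 to 32451445 (minus strand; ENSMUSG00000026819, coordinates of the count table, which match GRCm38). It stood at 17.1, 16.7 and 19.1 CPM in the Y-KO libraries, against 87.1, 91.6 and 89.3 CPM in the Y-Scr libraries. Every Y-KO library was below every Y-Scr library, at log2 -2.34 (SE 0.09, edgeR's quasi-likelihood test with Benjamini-Hochberg adjustment, adjusted p = 5.15e-14). Over the 17 alternative analyses its log2 fold change stayed between -2.48 and -2.30. The gene overlaps Naif1 on the opposite strand by 989 bases, and Naif1 had 126 to 163 counts in Y-KO and 120 to 177 counts in Y-Scr, so that its own counts did not separate the groups. The median log2 fold change of the 50 tested genes that flank Slc25a25 on chromosome 2 was 0.10.

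Slc25a24, at 61.9 CPM per kb in Y-KO the ATP-Mg carrier with the highest level per length, lies on chromosome 3 at 109123149 to 109168457 (plus strand; ENSMUSG00000040322). It stood at 201, 228 and 208 CPM in Y-KO libraries, against 179.7, 154 and 167 CPM in Y-Scr libraries. The Y-KO libraries were all above the Y-Scr libraries, at log2 0.35 (SE 0.07, edgeR adjusted p = 0.000493), and the call held in all 17 alternatives. Slc25a23, a further calcium-regulated ATP-Mg carrier, had 24, 19 and 16 counts in the Y-KO libraries and 5, 2 and 10 counts in the Y-Scr libraries. Its log2 fold change was 1.90 (SE 0.52, edgeR adjusted p = 0.00567), and its 95% confidence interval ran from 0.82 to 2.98, on 59 counts in Y-KO and 17 counts in Y-Scr in all.

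In the balance between these relatives, the share of Slc25a24 in the counts of Slc25a24 and Slc25a25 was 92.1%, 93.2% and 91.6% in Y-KO, against 67.4%, 62.7% and 65.2% in Y-Scr. This share does not depend on the scaling of libraries. The mean difference was 27.2 percentage points (exact two-sided permutation test over the 6 libraries, p = 0.1, the smallest that 20 arrangements allow; 0.157 after adjustment over 11 sets). Scaled by gene length the shares were 96.5% ± 0.384 in Y-KO and 81.0% ± 1.57 in Y-Scr (SD, n = 3 each), since Slc25a25 has the longer transcript model. Against Slc25a23, Slc25a24 kept 99.5% ± 0.103 of the counts in Y-KO and 99.8% ± 0.0857 in Y-Scr (exact permutation p = 0.1, adjusted p = 0.157, n = 3 each).

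The adenine nucleotide translocases exchange ADP for ATP across the inner membrane. Slc25a4 stood at 588, 565 and 593 CPM in Y-KO, against 472, 533 and 538 CPM in Y-Scr. The groups did not overlap, and the log2 fold change was 0.18 (SE 0.06, edgeR adjusted p = 0.0317). That call was lost without the first or the third Y-KO library or without the first Y-Scr library (adjusted p = 0.104, 0.126 and 0.102), and with the replicate block (adjusted p = 0.0914). Slc25a5 had 757, 712.5 and 756 CPM in Y-KO, against 646, 708 and 712.1 CPM in Y-Scr. Its lowest Y-KO library and its highest Y-Scr library were nearly level, and the log2 fold change of 0.11 (SE 0.06) missed the threshold (edgeR adjusted p = 0.176). Slc25a5 passed it in the 3 fits that removed a trend on gene length. Slc25a4 made up 44.0% ± 0.276 of the counts of both in Y-KO and 42.7% ± 0.438 in Y-Scr (exact permutation p = 0.1, adjusted p = 0.157, n = 3 each). Slc25a3, which imports phosphate, had a log2 fold change of 0.09 with a 95% confidence interval from -0.04 to 0.23.

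**Figure D2:**
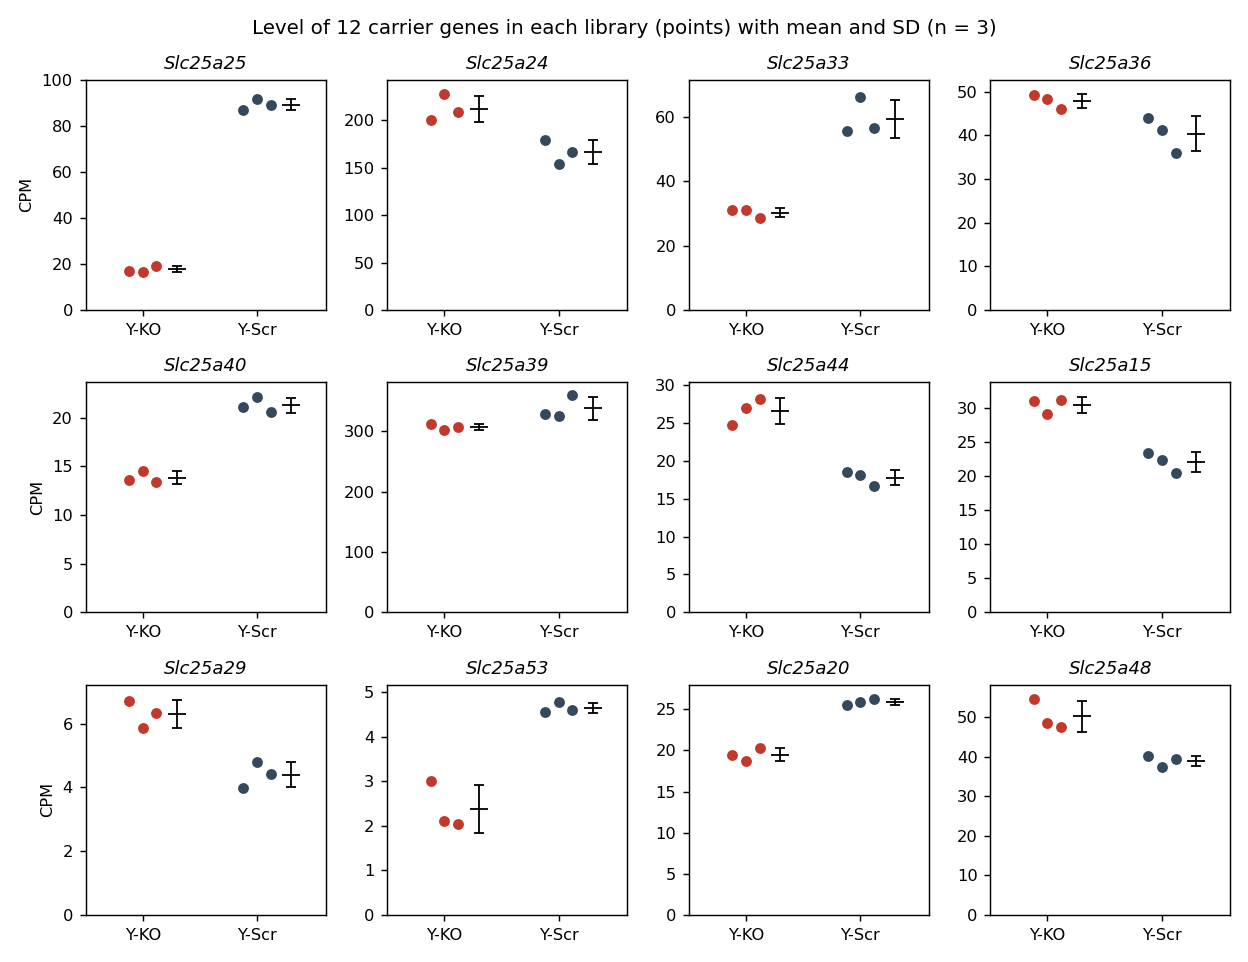
CPM of 12 carrier genes in each library, with 3 Y-KO points (red) left of 3 Y-Scr points (dark) and the mean ± SD as black bars. Slc25a25 stands at 16.7 to 19.1 CPM in Y-KO and 87.1 to 91.6 CPM in Y-Scr. The groups are separated in all 12 panels, but the genes were picked for display, mostly from members past the threshold. Of the 39 tested members, 25 had no overlap, beside 52.9% of all tested genes.

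The pyrimidine nucleotide carriers bring pyrimidine nucleotides into the matrix for mitochondrial DNA and RNA. By edgeR 1 was lower and 1 higher, beside 23.0% lower and 20.7% higher among all tested genes. The higher one, Slc25a36, depended on the fit. Slc25a33 lies on chromosome 4 at 149744036 to 149774277 (minus strand; ENSMUSG00000028982). It stood at 31.0, 31.0 and 28.7 CPM in the Y-KO libraries, against 55.7, 66.4 and 56.6 CPM in the Y-Scr libraries. It fell in Y-KO with no overlap, at log2 -0.98 (SE 0.09, edgeR adjusted p = 6.45e-08), and between -1.02 and -0.84 over the 17 alternatives. The 50 flanking genes had a median of 0.25. Slc25a36, on chromosome 9 at 97074961 to 97111157 (minus strand; ENSMUSG00000032449), stood at 49.3, 48.4 and 46.1 CPM in Y-KO, against 43.9, 41.2 and 36.1 CPM in Y-Scr. It was higher in every Y-KO library, at log2 0.25 (SE 0.09, edgeR adjusted p = 0.0290), and the call was lost without the first or the second Y-KO library or without the third Y-Scr library (adjusted p = 0.0996, 0.0762 and 0.123). It was also lost with the replicate block (adjusted p = 0.0501) and in the length fit, where the log2 fold change was 0.10 (adjusted p = 0.349, or 0.412 with the block). Its antisense partner Gm16185 overlaps it by 3285 bases and had 29 to 39 counts in Y-KO and 28 to 34 counts in Y-Scr.

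Slc25a33 supplied 38.6%, 39.1% and 38.3% of the counts of both genes in Y-KO, against 55.9%, 61.7% and 61.1% in Y-Scr. Most counts of the pair therefore came from Slc25a36 in Y-KO and from Slc25a33 in Y-Scr. The mean difference was -20.9 percentage points (exact permutation p = 0.1, adjusted p = 0.157, n = 3 each). Per kb, Slc25a33 led in both groups, with 76.2% ± 0.278 in Y-KO and 88.2% ± 1.41 in Y-Scr. Together the 2 genes stood at 78.2 ± 2.98 CPM in Y-KO and 99.9 ± 7.44 CPM in Y-Scr, with no overlap.

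**Figure D3:**
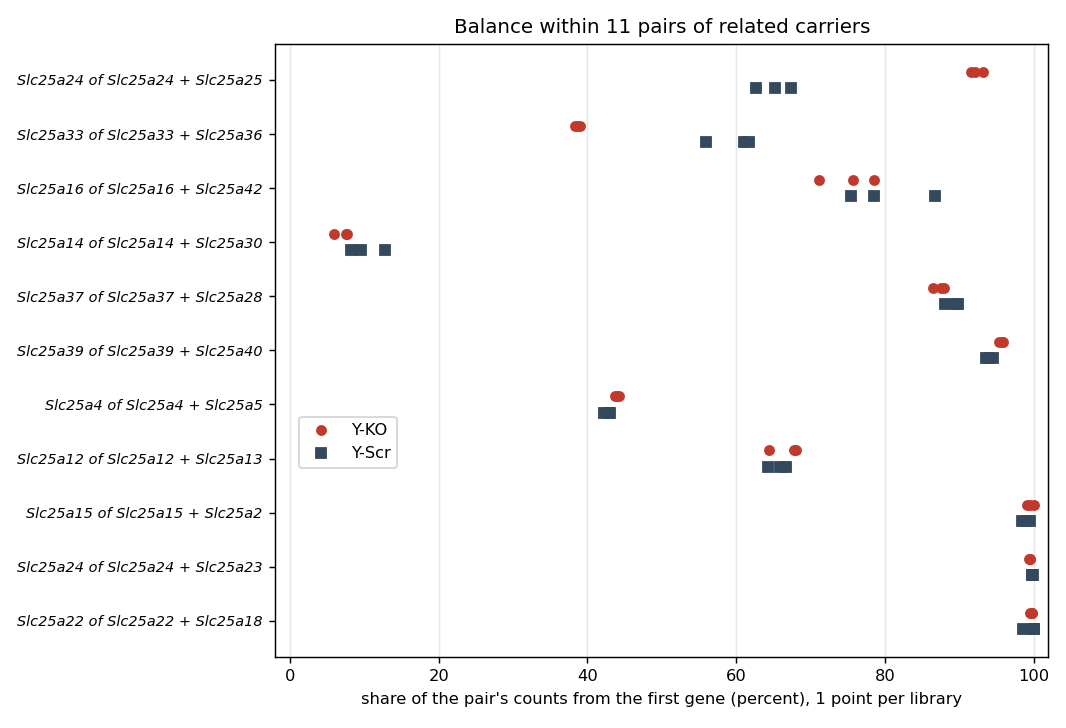
Share of the first gene in the counts of 11 pairs of related carriers, as a percentage on the horizontal axis with 1 point per library, Y-KO as red circles and Y-Scr as dark squares below them. Pairs are sorted by the size of the difference, and the widest gaps are those of Slc25a24 with Slc25a25 and of Slc25a33 with Slc25a36.

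Amino acid carriers, which feed the urea cycle, the malate-aspartate shuttle and amino acid breakdown, had 4 of 7 tested genes higher, 0 lower and 3 without a call, beside 20.7% and 23.0% of all tested genes. At an unadjusted p under 0.05 in edgeR 5 were higher and 0 lower, and DESeq2 called 3 and 0, limma-voom 4 and 0. The median log2 fold change of the class was 0.24. Their summed level was 214 ± 3.42 CPM in Y-KO and 179.7 ± 5.25 CPM in Y-Scr (SD, n = 3 each), with every Y-KO library above every Y-Scr library. Those that stayed called with the replicate block were Slc25a44 and Slc25a15.

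Slc25a44, which carries branched-chain amino acids, lies on chromosome 3 at 88410498 to 88425139 (minus strand; ENSMUSG00000050144). It stood at 24.7, 27.0 and 28.1 CPM in Y-KO, against 18.5, 18.1 and 16.6 CPM in Y-Scr. It rose in every Y-KO library, at log2 0.58 (SE 0.10, edgeR adjusted p = 0.000128). Slc25a15, the ornithine carrier of the urea cycle, on chromosome 8 at 22375551 to 22398597 (minus strand; ENSMUSG00000031482), stood at 31.0, 29.1 and 31.2 CPM in Y-KO, against 23.4, 22.4 and 20.4 CPM in Y-Scr. It also rose with no overlap, at log2 0.47 (SE 0.10, edgeR adjusted p = 0.000548). These calls held in all 17 alternatives. Slc25a2, the other ornithine carrier, had 5, 2 and 0 counts in Y-KO, against 2, 6 and 5 counts in Y-Scr, and was not tested. Slc25a15 thus supplied 99.6% ± 0.430 of the counts of both in Y-KO and 99.0% ± 0.529 in Y-Scr, with overlapping libraries (exact permutation p = 0.2, adjusted p = 0.275, n = 3 each).

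Slc25a29, which carries arginine, lysine and other basic amino acids, lies on chromosome 12 at 108825873 to 108835883 (minus strand; ENSMUSG00000021265). It stood at 6.71, 5.85 and 6.34 CPM in Y-KO, against 3.99, 4.78 and 4.43 CPM in Y-Scr. The Y-KO libraries were all higher, at log2 0.52 (SE 0.18, edgeR adjusted p = 0.0287). The call was lost without the first or the third Y-KO library or without the first Y-Scr library (adjusted p = 0.0991, 0.0695 and 0.0783), with the replicate block (adjusted p = 0.0506), in the length and GC fit (adjusted p = 0.0706) and in DESeq2 (adjusted p = 0.0707).

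The aspartate-glutamate exchangers serve the malate-aspartate shuttle, which brings reducing equivalents into the matrix. Slc25a12 stood at 75.1, 74.2 and 71.4 CPM in Y-KO, against 61.5, 64.6 and 64.7 CPM in Y-Scr. It rose with no overlap, at log2 0.21 (SE 0.07, edgeR adjusted p = 0.0218), and missed the threshold without the first or the second Y-KO library (adjusted p = 0.0787 and 0.0677) and with the replicate block (adjusted p = 0.0683). In the length fit it was at log2 0.10 (adjusted p = 0.270, or 0.359 with the block) and in the length and GC fit at 0.12 (adjusted p = 0.159). Slc25a13, its relative, stood at 35.7, 34.8 and 39.4 CPM in Y-KO, against 31.8, 35.8 and 32.2 CPM in Y-Scr. Its groups overlapped, at log2 0.14 (SE 0.09, edgeR adjusted p = 0.233). The share of Slc25a12 was 66.8% ± 2.03 in Y-KO and 65.6% ± 1.22 in Y-Scr (exact permutation p = 0.5, adjusted p = 0.55, n = 3 each).

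Slc25a22, a glutamate carrier, stood at 19.6, 22.6 and 22.2 CPM in Y-KO, against 18.2, 16.4 and 19.6 CPM in Y-Scr. The groups touched, and the log2 fold change of 0.24 (SE 0.11) missed the threshold (edgeR adjusted p = 0.0773). Its relative Slc25a18 had 2, 1 and 1 counts in Y-KO, against 0, 4 and 0 counts in Y-Scr, so that Slc25a22 held 99.6% ± 0.162 of the counts in Y-KO and 99.5% ± 0.840 in Y-Scr (exact permutation p = 1, adjusted p = 1, n = 3 each). Slc25a38, which brings glycine into mitochondria for heme synthesis, had a log2 fold change of -0.08 with a 95% confidence interval from -0.32 to 0.16.

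Of the carriers of iron and glutathione, 1 of 4 fell and 0 rose by edgeR, beside 23.0% and 20.7% of all tested genes. The count of higher genes was also 0 at an unadjusted p under 0.05, in DESeq2 and in limma-voom, and 1 in each fit that removed a trend. Slc25a40 lies on chromosome 5 at 8422850 to 8454797 (plus strand; ENSMUSG00000054099) and is, with Slc25a39, a carrier of glutathione into mitochondria. It stood at 13.6, 14.6 and 13.4 CPM in Y-KO, against 21.1, 22.1 and 20.6 CPM in Y-Scr. It fell with no overlap, at log2 -0.62 (SE 0.11, edgeR adjusted p = 0.000120), a call that held in all 17 alternatives. Slc25a39 stood at 312, 301 and 307 CPM in Y-KO, against 328, 324 and 360 CPM in Y-Scr. All Y-KO libraries were below the Y-Scr libraries, but the log2 fold change of -0.14 (SE 0.06) missed the threshold (edgeR adjusted p = 0.0801). In the length and GC fit Slc25a39 passed it as lower (edgeR adjusted p = 0.000988). Slc25a39 supplied 95.7% ± 0.248 of the counts of both in Y-KO and 94.1% ± 0.495 in Y-Scr (exact permutation p = 0.1, adjusted p = 0.157, n = 3 each).

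The mitoferrins carry iron for heme and iron-sulfur clusters. Slc25a37 stood at 213, 244 and 217 CPM in Y-KO, against 244, 213 and 249.2 CPM in Y-Scr, with overlap and a log2 fold change of -0.07 (SE 0.07, edgeR adjusted p = 0.476). Slc25a28 stood at 33.2, 33.3 and 30.9 CPM in Y-KO, against 27.4, 28.8 and 29.3 CPM in Y-Scr. Its groups did not overlap, at log2 0.19 (SE 0.09, edgeR adjusted p = 0.0997). In the 3 fits that removed a trend Slc25a28 passed the threshold as higher. The share of Slc25a37 was 87.3% ± 0.770 in Y-KO and 89.2% ± 0.943 in Y-Scr (exact permutation p = 0.1, adjusted p = 0.157, n = 3 each).

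Carriers of cofactors, vitamins and acyl groups showed no common direction, with 1 of 8 higher, 2 lower and a median log2 fold change of 0.04. Over all tested genes 20.7% were higher and 23.0% lower. Slc25a20 exchanges acylcarnitines for carnitine in the route that brings long-chain fatty acids to oxidation, and it fell in Y-KO, at log2 -0.41. Over the 17 alternatives it kept its call and lay between -0.44 and -0.38. Slc25a17, a peroxisomal carrier of coenzyme A, FAD and NAD, was at log2 -0.19, and its call was lost without the first or the second Y-KO library or without the second Y-Scr library (adjusted p = 0.169, 0.122 and 0.185). It was also lost with the replicate block (adjusted p = 0.0828), in DESeq2 (adjusted p = 0.0730) and in the length fit (log2 -0.11, adjusted p = 0.183, or 0.259 with the block), and in the length and GC fit it stood at -0.0089 (adjusted p = 0.922). Slc25a51, the mitochondrial NAD carrier, was at log2 0.21, and its call was lost without the first or the third Y-KO library or without the first Y-Scr library (adjusted p = 0.116, 0.0727 and 0.0553), with the replicate block (adjusted p = 0.0762), with no filter on low counts (adjusted p = 0.05003) and in the length fit (adjusted p = 0.0849, or 0.147 with the block).

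The coenzyme A carriers are a further related pair. Slc25a16 stood at 15.04, 16.7 and 17.1 CPM in Y-KO, against 15.5, 18.7 and 16.2 CPM in Y-Scr, at log2 -0.05 (SE 0.12, edgeR adjusted p = 0.771). Slc25a42 stood at 4.83, 4.54 and 6.91 CPM in Y-KO, against 5.06, 2.84 and 4.43 CPM in Y-Scr, at log2 0.40 (SE 0.24, edgeR adjusted p = 0.183). Both genes had overlapping groups, and the share of Slc25a16 was 75.1% ± 3.75 in Y-KO and 80.2% ± 5.89 in Y-Scr (exact permutation p = 0.5, adjusted p = 0.55, n = 3 each). The carriers of S-adenosylmethionine (Slc25a26) and folate (Slc25a32) had log2 fold changes of -0.02 and 0.14 that did not pass the threshold.

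Carriers of di- and tricarboxylates had 1 of 3 tested genes higher and 0 lower by edgeR, beside 20.7% and 23.0% of all tested genes. The lower count was also 0 at an unadjusted p under 0.05, in DESeq2 and in limma-voom. Slc25a1, which exports citrate for the synthesis of fatty acids and sterols in the cytosol, was at log2 0.20, and its call was lost without the first or the third Y-KO library or without the second Y-Scr library (adjusted p = 0.0704, 0.116 and 0.0904), and with the replicate block (adjusted p = 0.0531). The dicarboxylate carrier Slc25a10, at log2 0.22, and the 2-oxoglutarate carrier Slc25a11, at log2 -0.11, did not pass the threshold. Slc25a10 passed it in 5 alternatives: RLE and upper-quartile scaling, the length fit with and without the block, and without the third Y-Scr library.

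In the branch that is closest to the uncoupling proteins, 2 of 3 members were tested. EdgeR called 0 higher and 1 lower, beside 20.7% and 23.0% of all tested genes. At an unadjusted p under 0.05, 1 was higher and 1 lower, and DESeq2 and limma-voom called 0 in either direction. Slc25a14 (UCP5) stood at 8.76, 7.28 and 9.18 CPM in Y-KO, against 11.3, 13.2 and 9.23 CPM in Y-Scr. The nearest libraries of the groups were almost level, at log2 -0.41 (SE 0.16, edgeR adjusted p = 0.0437). The call was lost when any library but the third Y-Scr library was left out (adjusted p = 0.0521 to 0.241), in DESeq2 and limma-voom, with upper-quartile scaling, with the replicate block and in each fit that removed a trend. Slc25a30 stood at 106, 116 and 113 CPM in Y-KO, against 108, 90.3 and 103 CPM in Y-Scr, at log2 0.15 (SE 0.07, edgeR adjusted p = 0.0968), with overlap. Slc25a14 supplied 7.01% ± 0.951 of the counts of both in Y-KO and 10.2% ± 2.34 in Y-Scr (exact permutation p = 0.1, adjusted p = 0.157, n = 3 each).

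Among the members without a settled substrate 7 of 8 were tested, 1 rose and 2 fell, beside 20.7% and 23.0% of all tested genes. Slc25a53 lies on the X chromosome at 136981116 to 137038302 (minus strand; ENSMUSG00000044348). It stood at 3.01, 2.12 and 2.04 CPM in Y-KO, against 4.56, 4.78 and 4.60 CPM in Y-Scr. It fell in every Y-KO library, at log2 -0.95 (SE 0.24, edgeR adjusted p = 0.00323). Zcchc18 overlaps it on the opposite strand by 5318 bases and had 0 to 2 counts in Y-KO and 0 to 5 counts in Y-Scr. Slc25a48 rose by log2 0.36, and these 2 calls held in all 17 alternatives. Slc25a45 was lower at log2 -0.35, and was not called without the third Y-KO library (adjusted p = 0.0576) or in the length fit with the block (adjusted p = 0.0610). Slc25a46, an outer membrane member with a part in mitochondrial shape, was at log2 -0.08, and Slc25a35, Slc25a43 and Slc25a47 lay between -0.97 and -0.11 without passing the threshold.

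The 8 members that were not tested were barely detected. Slc25a31, the translocase of testis, and Slc25a21, the carrier of 2-oxoadipate, had 0 counts in all 6 libraries. Slc25a27 (UCP4) had 5, 3 and 1 counts in Y-KO, against 0, 0 and 4 counts in Y-Scr. Slc25a54 had 0, 1 and 0 counts in Y-KO, against 4, 0 and 0 counts in Y-Scr. Slc25a34 had 0, 0 and 2 counts in Y-KO, against 3, 0 and 0 counts in Y-Scr, and Slc25a41 had 2, 0 and 0 counts in Y-KO and none in Y-Scr. Slc25a2 and Slc25a18 are the remaining ones.

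Genes that work with the carriers were read from 17 lists of 174 genes, of which 156 were tested. Of these 32 rose (20.5%) and 42 fell (26.9%), near the 20.7% and 23.0% of all tested genes. The same 20.7% and 23.0% stand beside the counts of each list that follows. Slc25a1 hands citrate to the enzymes that make fatty acids in the cytosol. Of 6 tested genes of this route 4 rose and 0 fell by edgeR, and 0 were lower at an unadjusted p under 0.05, in DESeq2 or in limma-voom, and 1 was lower in each fit that removed a trend. Fasn, the fatty acid synthase, averaged 324 ± 31.9 CPM in Y-KO and 153 ± 24.4 CPM in Y-Scr (SD, n = 3 each), at log2 1.09 (edgeR adjusted p = 2e-05). Acaca, acetyl-CoA carboxylase, was at log2 0.91 and Acly, which splits exported citrate, at log2 0.51. Cs, citrate synthase, was at log2 0.21 and was not called without the first or the third Y-KO library (adjusted p = 0.0501 and 0.0608) or in the length fit (log2 0.14, adjusted p = 0.0635, or 0.117 with the block). In the carnitine shuttle, where Slc25a20 fell, 3 of 5 other tested genes were higher and 0 lower, and the lower count was again 0 at an unadjusted p under 0.05, in DESeq2 and in limma-voom. Cpt1c averaged 5.46 CPM in Y-KO and 2.42 CPM in Y-Scr, at log2 1.17. Cpt1a, which makes acylcarnitines at the outer membrane, was at log2 0.43. Crat was at log2 0.31, and its call was lost without the second or the third Y-KO library or the second Y-Scr library (adjusted p = 0.0779, 0.0522 and 0.124) and in the length and GC fit (log2 0.16, adjusted p = 0.197).

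Enzymes that act on the substrates of the amino acid carriers moved in both directions or were not called. Branched-chain amino acid breakdown had 0 of 5 tested genes past edgeR's threshold and 0 at an unadjusted p under 0.05, in DESeq2 or in limma-voom, with log2 fold changes between -0.14 and 0.06, while Slc25a44 was at 0.58. Around ornithine, 2 of 8 tested genes were higher, or 1 without the third Y-KO library, and 3 were lower. Odc1, which turns ornithine into putrescine, averaged 1647 ± 75.7 CPM in Y-KO and 2691 ± 179 CPM in Y-Scr (SD, n = 3 each), at log2 -0.71, and Oat, the ornithine aminotransferase of the matrix, was at log2 0.26. Aldh18a1 and Pycr1, which make proline, were lower, at log2 -0.25 and -0.40. Among 7 glutamine and glutamate genes 1 was higher and 2 lower: the aminotransferase Gpt2 was at log2 -0.58 and the asparagine synthetase Asns at -0.49. The higher gene was the glutamine synthetase Glul at 0.35, which was not called without the first or the third Y-KO library or the first or the third Y-Scr library (adjusted p = 0.217, 0.0699, 0.072 and 0.103), with the replicate block (adjusted p = 0.0671) or in DESeq2 (adjusted p = 0.0766). The malate-aspartate and glycerol phosphate shuttles had 1 of 6 higher and 2 lower, with Got1, the cytosolic aspartate aminotransferase, at log2 -0.35 and Gpd1l at 0.44. Gpd2, the mitochondrial glycerol phosphate dehydrogenase, was at -0.19 and was not called without the first, the second or the third Y-KO library or the first Y-Scr library (adjusted p = 0.105, 0.0602, 0.0708 and 0.118) or with the replicate block (adjusted p = 0.0761).

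Of 17 tested genes for heme and iron-sulfur clusters, 0 rose and 6 fell by edgeR, beside 20.7% and 23.0% of all tested genes. Neither mitoferrin passed the threshold, though Slc25a28 did so, as higher, in the 3 fits that removed a trend. In this list the count of higher genes was 1 at an unadjusted p under 0.05, 0 in DESeq2 and in limma-voom, 1 with RLE or upper-quartile scaling, 2 without the third Y-Scr library, and 4 in the length fit (2 with the block and 2 with GC). Uros, an enzyme of heme synthesis, was at log2 -0.71, Isca2 and Hscb, which serve iron-sulfur cluster assembly, at -0.56 and -0.63, and Ppox, which acts late in heme synthesis, at -0.43. In the list for glutathione synthesis and use, which also held a protease, Afg3l2, 4 of 8 rose and 3 fell. Gclm, a subunit of the enzyme that starts glutathione synthesis, was at log2 0.55, the reductase Gsr at 0.39 and the mitochondrial protease Afg3l2 at 0.39, whereas Gpx4, the peroxidase that protects membrane lipids, was at -0.65. Of 10 genes for mitochondrial nucleotides and replication 3 rose and 5 fell, beside 20.7% and 23.0% of all tested genes. Cmpk2, a mitochondrial pyrimidine nucleotide kinase, averaged 2.82 ± 0.401 CPM in Y-KO and 29.9 ± 1.26 CPM in Y-Scr (SD, n = 3 each), at log2 -3.40. Rrm2b and Tk2, which supply deoxynucleotides, were at -0.67 and -0.55, and the helicase Twnk at 0.59.

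Folate enzymes had 2 of 10 tested genes higher and 2 lower. The cytosolic Mthfd1 and Shmt1 were higher, at log2 0.66 and 0.61, and the mitochondrial Mthfd2l and Mthfd2 lower, at -0.42 and -0.23. Without the first Y-Scr library 4 genes of the list were lower. In coenzyme A, NAD and thiamine metabolism 4 of 16 were higher and 5 lower, and the higher count was 1 without the third Y-KO library, 2 without the second Y-Scr library and 2 in DESeq2. Nmnat3, which makes NAD, was at log2 -0.94, Ppcdc, an enzyme of coenzyme A synthesis, at -0.48, Nampt, which salvages nicotinamide, at -0.29 and the folate transporter Slc19a1 at 0.49. A list of other inner membrane transporters, which also held Tmem175, a potassium channel of lysosomes and endosomes, had 2 of 19 higher and 5 lower, or 2 of 18 higher and 4 lower without Tmem175. For the whole list the higher count was 1 without the first Y-KO or the third Y-Scr library or in the length and GC fit and 4 without the second Y-Scr library, and the lower count was 3 without the first Y-Scr library. Mpc1, a subunit of the pyruvate carrier, averaged 8.23 ± 1.29 CPM in Y-KO and 16.6 ± 4.82 CPM in Y-Scr (SD, n = 3 each), at log2 -1.01, while its partner Mpc2 was at -0.03 and not past the threshold. Letm1 was at 0.44, but at 0.17 and not called in the length and GC fit (adjusted p = 0.0581), and Tmem175 was at -0.83. Mcub, an inhibitory subunit of the calcium uniporter, was at -0.33, but at -0.18 and not called in the length fit (adjusted p = 0.0687, or 0.117 with the block).

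For the machinery that imports carriers into mitochondria, 1 of 15 tested genes was higher and 2 were lower, beside 20.7% and 23.0% of all tested genes. The higher count was 2 without the third Y-Scr library and 2 to 3 in the fits that removed a trend. The import pore Tomm40 was at log2 0.30 and the receptor Tomm20 at -0.44, both of the outer membrane. Timm8b, at -0.33, was not called without the first Y-KO library or the second or the third Y-Scr library (adjusted p = 0.0693, 0.0862 and 0.07). Of 3 outer membrane channels, Vdac3 was at log2 -0.29, but at -0.13 and not called in the length and GC fit (adjusted p = 0.112), and Vdac1 was at 0.24, a call lost without the third Y-KO library (adjusted p = 0.0542). Among 9 regulators of mitochondrial genes 3 rose and 1 fell, or 2 without the first Y-Scr library. The coactivators Ppargc1b and Pprc1 were at log2 1.00 and 0.45, and Myc at -0.76. Yy1 was at 0.23, and was not called in the length fit (log2 0.14, adjusted p = 0.0511, or 0.109 with the block) or in the length and GC fit (log2 0.10, adjusted p = 0.128). Of 10 genes of mitochondrial shape 1 was higher and 4 lower, and the lower count was 1 without the second or the third Y-KO library and 2 without the second Y-Scr library, in DESeq2, in limma-voom, with RLE or upper-quartile scaling, with the replicate block and in the fits that removed a trend. The fusion gene Mfn2 was at log2 0.38 and the fission gene Mff at -0.46. Fis1, at -0.23, was not called without the second or the third Y-KO library (adjusted p = 0.0561 and 0.0628) or in the length fit (log2 -0.09, adjusted p = 0.257, or 0.371 with the block). Yme1l1, at -0.20, was not called when any library but the third Y-Scr library was left out (adjusted p = 0.0574 to 0.265), with RLE or upper-quartile scaling, with the replicate block, in the length and GC fit, in DESeq2 or in limma-voom. The family members outside the Slc25a symbols that could be tested were Mtch1, at log2 -0.11 and not past the threshold, and Mtch2, at -0.21 and lost without the second or the third Y-KO library or the second Y-Scr library (adjusted p = 0.0591, 0.0565 and 0.114).

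**Figure D4:**
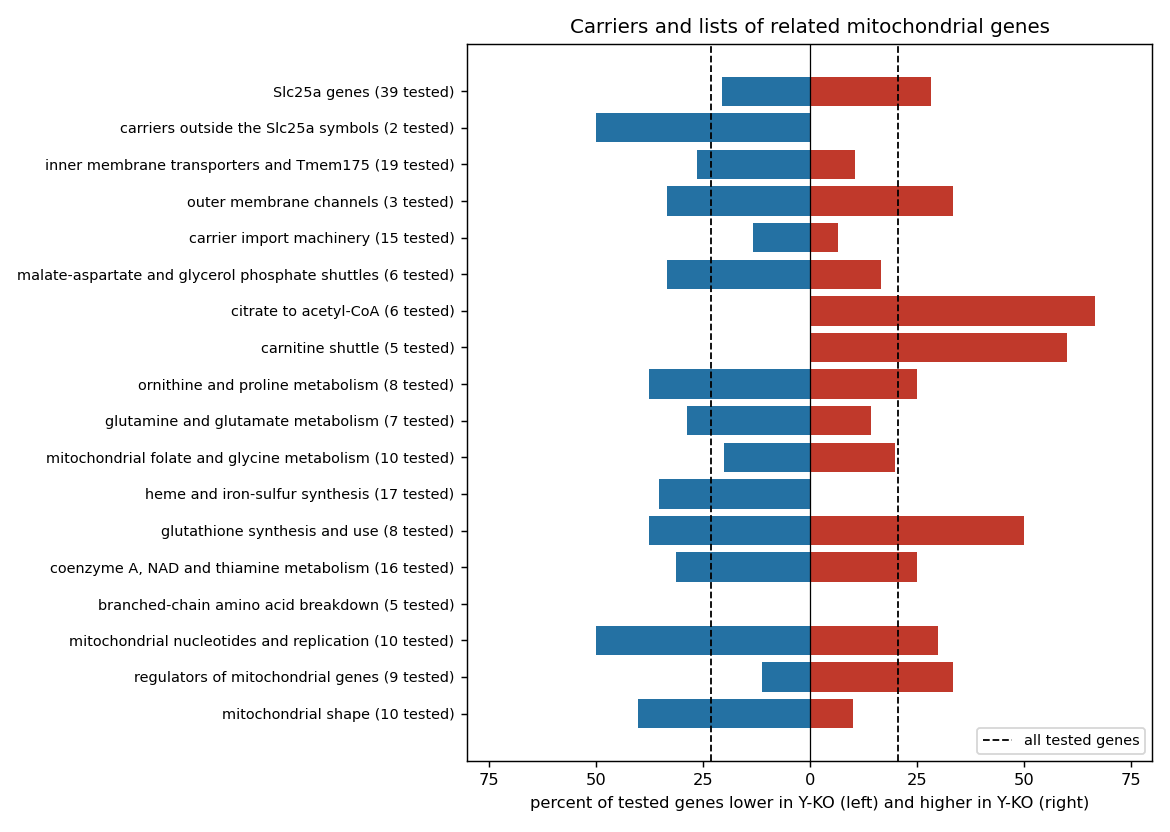
Percent of tested genes higher (red, to the right) and lower (blue, to the left) in Y-KO for the carriers and 17 lists of genes that work with them, with dashed lines at 20.7% and 23.0% for all tested genes. The citrate list has 4 of 6 genes higher and 0 lower, and the heme and iron-sulfur list has 6 of 17 lower and 0 higher.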

How the data were processed

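Poly-A RNA of 6 libraries, 3 Y-KO and 3 Y-Scr, was sequenced after a stranded library preparation, per the labels' protocols. The authors deposited raw read counts per gene in a single table. The submitters' processing notes list the builds GRCm39 and mm39 and, among the tools, STAR 2.5.2b, featureCounts 1.5.3, Trimmomatic 0.39, MultiQC 1.13, FastQC 0.12.1, with DESeq2 unversioned. The coordinates in the table match GRCm38 instead: 98.3% of the 54409 genes shared with GENCODE M21 had the same position, as did 44 of the 47 members. How featureCounts treated strand is not stated in those sources, so reads of a gene and of one that overlaps it on the other strand may not be separated.

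Tests used R 4.3.3 and edgeR 4.0.16 on the counts (filterByExpr, TMM scaling, robust quasi-likelihood fit on group alone, two-sided, Benjamini-Hochberg adjustment over all 12907 tested genes, threshold 0.05). CPM use the TMM-scaled library sizes, and levels per kb the gene length in the table. SE is the absolute log2 fold change over the square root of F. Replicates of a group were not merged, since their counts differed beyond sampling noise, with chi-square values of 3.55 to 16.0 per degree of freedom. Paralog sets needed 30 counts over both genes in every library, which 11 of 12 had. Alternatives were other scalings, filters, DESeq2 1.42.0, limma-voom 3.58.1, a replicate block, gene length and GC trends removed (splines with 4 degrees of freedom), and each library left out. The joint length and GC fit, and a list without Tmem175, were added after seeing the data. The fit was tested on simulated counts.

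Members and lists were chosen with earlier results of these data known. Full values are given for members past the threshold with an absolute log2 fold change of at least 0.5 and a mean of at least 1 CPM, and for the tested paralog sets; the log2 fold change for the other members past it; and ranges for the rest. From each list up to 4 genes with the smallest adjusted p are named; Mpc2 and Mtch1 are shown beside their partners, chosen after their values were seen. Protein sequences were planned and are not used here. The values of 1 tested carrier are not reported here; it counts in the totals.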

Additional observations from a re-analysis of the deposited data

How the results depend on the processing

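Of the 19 members called, 10 kept their direction and call in every one of the 17 alternative analyses in which they were tested (5 higher, Slc25a24, Slc25a48, Slc25a15, Slc25a44 and Slc25a23, and 5 lower, Slc25a25, Slc25a33, Slc25a20, Slc25a40 and Slc25a53), 9 lost the call under at least 1, and 0 changed sign. Slc25a23 was not tested at 1 CPM in 3 libraries. Of the members without a call, 9 passed the threshold under at least 1 alternative. These were Slc25a10 under 5, Slc25a5 and Slc25a28 under 3 each and Slc25a30 under 2. Slc25a39, Slc25a32, Slc25a13, Slc25a22 and Slc25a47 passed under 1 each. The labels do not say that the replicate numbers pair the libraries. Same-numbered libraries correlated at r = -0.06, -0.03 and -0.02 in their deviations from the group means, and different-numbered ones at -0.01 to 0.05. These values show no pairing, but they cannot exclude a weak one. With the replicate number as a block, members higher came to 5 and, with the length trend also removed, members lower to 5. Leaving out 1 library gave 5 to 12 members higher and 6 to 8 lower. Class counts of higher genes moved as follows. Amino acid carriers had 2 under the block and 2 to 5 with a library left out. Di- and tricarboxylate carriers had 2 under RLE, upper-quartile scaling and the length trend with and without the block, 0 under the block alone, and 0 to 2 with a library left out. Cofactor carriers had 0 with no filter, under the block and under the length trend with and without it, 2 under length and GC, and 0 to 1 with a library left out. Pyrimidine carriers had 0 under the block and the length trend with and without it, and 0 to 1 with a library left out. Iron and glutathione carriers had 1 under each fit with a trend removed. The uncoupling branch had 1 under length and GC, and 0 to 1 with a library left out. Counts of lower genes were 1 for cofactor carriers under the block, the 3 trend fits and DESeq2, and 1 to 2 with a library left out. They were 0 for the uncoupling branch under upper-quartile scaling, the block, the trend fits, DESeq2 and limma-voom, and 0 to 1 with a library left out, 2 for iron and glutathione under length and GC, and 1 for members with no settled substrate under the length trend with the block. Per kb, share differences (percentage points) were 15.5 for Slc25a24 with Slc25a25, -0.23 for Slc25a24 with Slc25a23, -12.0 for Slc25a33 with Slc25a36, -3.95 for Slc25a37 with Slc25a28, 0.57 for Slc25a39 with Slc25a40, -5.17 for Slc25a14 with Slc25a30 and 2.44 for Slc25a15 with Slc25a2. Members without a call changed sign. With the length trend removed, alone and with the block, these were Slc25a11 (0.00739 and 0.00669), Slc25a38 (0.00768 and 0.0122) and Slc25a43 (0.0277 and 0.0201). Under length and GC they were Slc25a43 (0.00344), Slc25a46 (0.10), Slc25a22 (-0.012) and Slc25a16 (0.038), and in limma-voom Slc25a26 (0.039). With a library left out, Slc25a38 ranged over -0.19 to 0.024, Slc25a16 over -0.091 to 0.040 and Slc25a26 over -0.19 to 0.078. The causes were not tested. The 8 untested members had at most 6 counts in a library, too few for the test.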
